A study of Mus musculus with 12 samples.

Results

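Fgf21 encodes a hepatic hormone of nutrient shortage, and it was followed here with 9 genes of the integrated stress response: Gdf15, Atf3, Ddit3, Atf4, Atf5, Trib3, Asns, Chac1 and Sesn2. They were chosen by symbol. Array probes were named through their accession, and the 10 genes were 10 of the 21613 genes named in this way, read by 11 probes, with 2 probes for Atf4. All 10 passed the filter on dim probes, none of them through CDAHFD arrays alone, as did 13898 genes in all, and each difference below was tested within that table. The diet differences had no part in the choice of probes, but the genes themselves were picked with earlier results of these data known.

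The samples were livers of C57BL/6NJcl males, and 12 one-colour arrays gave 2 for each of 6 groups. The mice were kept for 1 week before the diets began. CDAHFD, in which choline is lacking and amino acids replace protein, holds 60% of its energy as fat and only 0.1% methionine, and it is used to induce nonalcoholic steatohepatitis, and the control diet was the standard chow CE-2. The chow is not matched to CDAHFD in fat, choline, methionine or protein source, so the groups differ in all of these together. Livers of each diet were taken after 1, 2 and 6 weeks, at 7, 8 and 12 weeks of age. The question is how far a stress programme that responds to amino acid shortage was changed in liver by the diet, and at which week. The labels do not say that the 2 arrays of a group came from separate mice, so p-values rest on the spread between arrays alone, which may be technical.

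In the integrated stress response, a set of kinases that sense amino acid shortage, endoplasmic reticulum stress, haem shortage or double-stranded RNA phosphorylate the initiation factor eIF2. General translation then falls while the mRNA of the transcription factor ATF4 is translated more, so that ATF4 protein can rise with no change in its mRNA. ATF4 activates genes of amino acid synthesis and transport, further transcription factors such as CHOP (encoded by Ddit3) and ATF3, and the secreted proteins FGF21 and GDF15. In liver, Fgf21 is also a target of the fasting receptor PPARalpha, and protein or methionine restriction is a known inducer of it in mice.

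ATF4 binds with C/EBP partners to composite elements whose core is written TGATGNAA, or TTNCATCA on the other strand. Both spellings were searched in the promoters given by RefSeq for assembly GRCm38.p6, from 250 bases before to 50 bases after each start. All 10 genes had an entry, with 12 start sites in all. The letters occurred in 5 of the 10 genes, once in each, whereas they occurred in 4.5% of the 27025 genes and 4.0% of the 32851 promoters of that table. The 5 promoters with the letters are shown, since these are the genes in which a candidate element could be pointed at, with the matched letters in capitals and each promoter 5′ to 3′ on the strand of its gene. They lie at chr7:45615441-45615740 (minus strand) for Fgf21, chr1:191183284-191183583 (minus strand) for Atf3, chr2:119350992-119351291 (plus strand) for Chac1, chr6:7693160-7693459 (minus strand) for Asns and chr2:152344011-152344310 (minus strand) for Trib3.
Fgf21: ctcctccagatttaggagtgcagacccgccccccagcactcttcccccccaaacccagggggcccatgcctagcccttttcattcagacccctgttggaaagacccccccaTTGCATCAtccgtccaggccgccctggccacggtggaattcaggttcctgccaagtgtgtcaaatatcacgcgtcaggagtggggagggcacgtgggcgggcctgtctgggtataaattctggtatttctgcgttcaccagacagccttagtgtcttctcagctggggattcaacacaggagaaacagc
Atf3: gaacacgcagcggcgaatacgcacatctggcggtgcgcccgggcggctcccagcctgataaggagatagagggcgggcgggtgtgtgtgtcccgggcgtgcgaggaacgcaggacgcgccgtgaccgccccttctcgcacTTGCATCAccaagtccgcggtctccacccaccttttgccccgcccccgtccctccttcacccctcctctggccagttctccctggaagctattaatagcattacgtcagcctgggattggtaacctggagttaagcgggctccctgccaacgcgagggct
Chac1: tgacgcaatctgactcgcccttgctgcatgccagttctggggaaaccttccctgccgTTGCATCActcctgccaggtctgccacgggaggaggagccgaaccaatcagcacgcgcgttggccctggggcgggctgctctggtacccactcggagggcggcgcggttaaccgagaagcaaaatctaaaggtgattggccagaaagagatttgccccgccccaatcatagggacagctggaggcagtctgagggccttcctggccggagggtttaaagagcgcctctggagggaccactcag
Asns: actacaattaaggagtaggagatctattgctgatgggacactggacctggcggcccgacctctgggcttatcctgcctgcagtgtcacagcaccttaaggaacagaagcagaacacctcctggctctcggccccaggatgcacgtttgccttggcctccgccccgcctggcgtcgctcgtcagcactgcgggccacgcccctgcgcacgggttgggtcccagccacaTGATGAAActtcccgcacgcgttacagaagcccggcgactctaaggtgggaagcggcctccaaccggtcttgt
Trib3: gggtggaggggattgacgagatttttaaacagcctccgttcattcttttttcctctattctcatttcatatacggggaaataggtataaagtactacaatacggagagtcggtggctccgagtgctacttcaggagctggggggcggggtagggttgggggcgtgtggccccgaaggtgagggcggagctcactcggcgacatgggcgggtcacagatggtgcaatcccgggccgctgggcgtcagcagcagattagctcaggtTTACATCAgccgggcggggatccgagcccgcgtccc
The letters began 139 bases before the start in Fgf21, 110 in Atf3, 193 in Chac1 and 23 in Asns. In Trib3 they began 14 bases after it. Fgf21, Atf3 and Chac1 held the same 8 letters, TTGCATCA, while Trib3 held TTACATCA and Asns held TGATGAAA on the strand shown. No match was found in these windows for Atf4, Atf5, Ddit3, Gdf15 or Sesn2. A match is a description of letters and not a measured binding site.

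**Figure D1:**
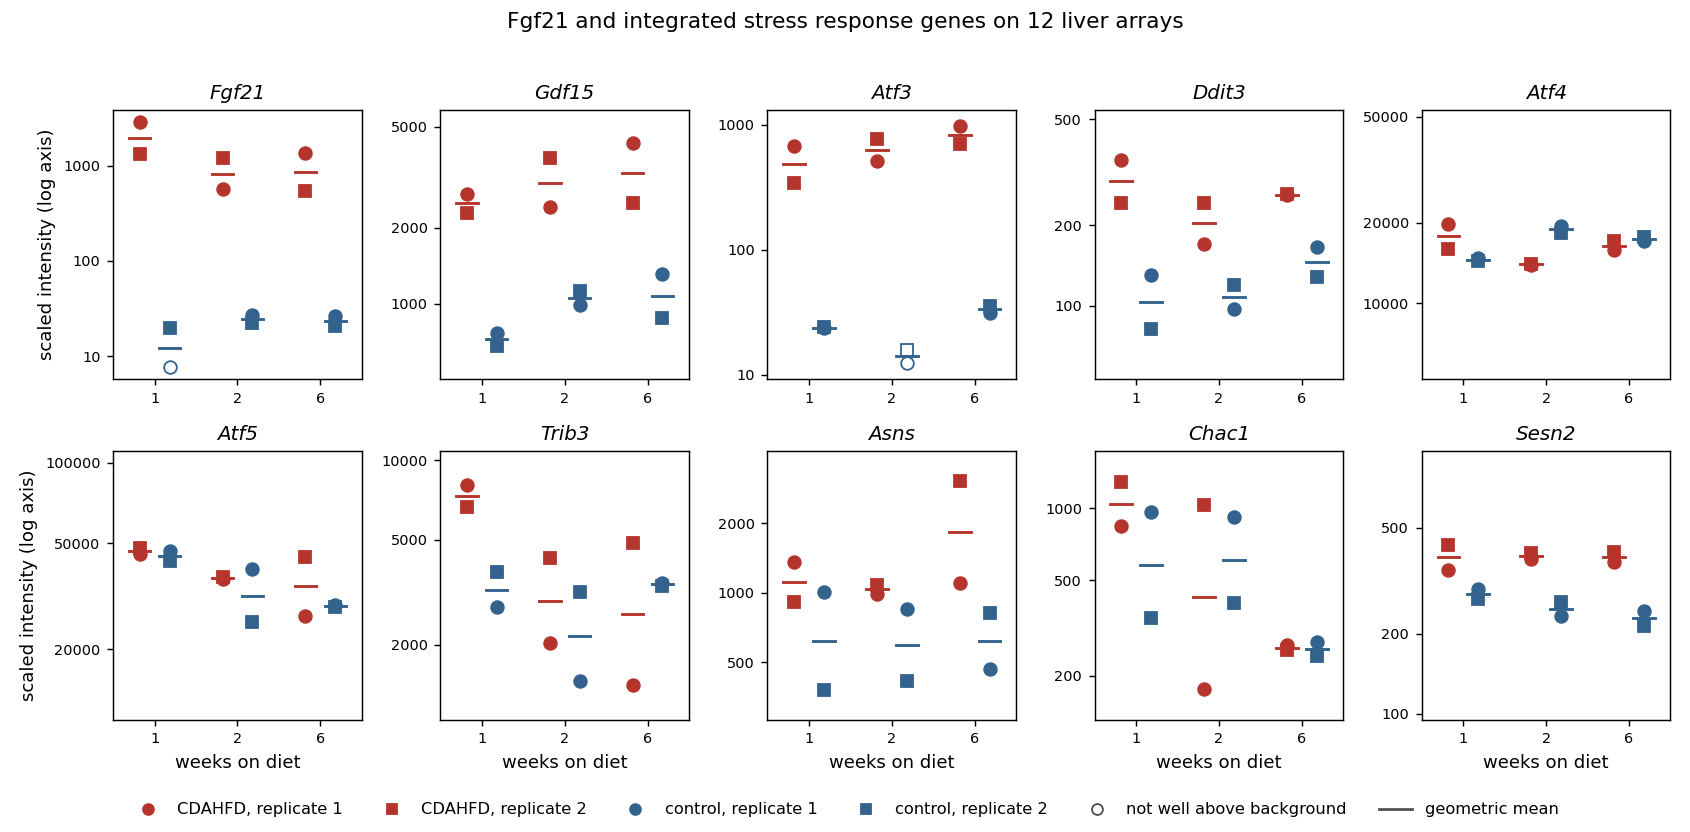
Scaled intensity (log axis) of the 10 genes on each array against weeks on diet, with CDAHFD in red to the left of control in blue, circles and squares for replicates 1 and 2, open symbols for values not well above background and lines for the geometric mean of 2 arrays. Fgf21 and Atf3 on CDAHFD lie at 344.2 or more on every array and at 35.4 or less on every control array.

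Fgf21 and Atf3 had the largest differences between the diets among the 10 genes at every week. Levels are given as scaled intensity, the processed intensity of the spot after the arrays were scaled to a common 75th percentile, and they compare arrays for 1 probe, not probes with each other. At 1 week, Fgf21 stood at 2863 and 1323 on the CDAHFD arrays, against 7.75 and 19.6 on the control arrays, of which the lower was not well above background. The 2-week arrays stood at 563.8 and 1207 on CDAHFD, against 26.9 and 22.3 on control. At 6 weeks the CDAHFD arrays read 1351 and 543.8 and the control arrays 26.3 and 20.5. No CDAHFD array came near a control array in any week, whereas the CDAHFD arrays of a group differed from each other by a factor of about 2 or more, replicate 2 over replicate 1 being 0.462, 2.14 and 0.403 at 1, 2 and 6 weeks.

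Each difference is CDAHFD minus control on the log2 scale, less the median difference over all genes, and carries the standard error of the limma fit, and adjusted p is by Benjamini-Hochberg over the 13898 genes. Fgf21 rose by 7.17 ± 0.64 at 1 week (adjusted p = 0.000126), 5.02 ± 0.64 at 2 weeks (adjusted p = 0.000604) and 5.17 ± 0.64 at 6 weeks (adjusted p = 0.00046), and by 5.78 ± 0.37 averaged over weeks (adjusted p = 4.55e-06). In linear terms these were 144-, 32.5-, 36.0- and 55.1-fold. Because the control level was close to background, the size depends on how background is treated: with normexp correction it was 4.50, 3.29 and 3.51 at the 3 weeks, with adjusted p of 0.0153 or less under every alternative. At 6 weeks it was 4.48 or 5.84 without CDAHFD replicate 1 or 2, and at 1 week 6.51 or 7.85 without control replicate 1 or 2. In whole tissue, fewer cells of a type and less RNA per cell cannot be told apart, here or in the results that follow.

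The 1-week CDAHFD level of Fgf21 had a geometric mean of 1946, above 824.9 at 2 weeks and 857.1 at 6 weeks. The 1-week CDAHFD arrays lay above the 2-week ones without overlap, but no change between weeks was called after adjustment. The change of the diet difference was -2.21 ± 0.91 from 1 to 2 weeks (unadjusted p = 0.0406, adjusted p = 0.259) and -2.07 ± 0.91 from 1 to 6 weeks (unadjusted p = 0.0507, adjusted p = 0.215), by limma. Control levels enter these changes. They differed by 0.98 ± 0.64 from 1 to 2 weeks and 0.89 ± 0.64 from 1 to 6 weeks (adjusted p = 0.356 and 0.364 by limma). The F test over the 3 weeks gave an adjusted p of 0.299, and the weeks within CDAHFD an adjusted p of 0.481. By geometric mean the 6 groups stood in the order CDAHFD at 1, 6 and 2 weeks, then control at 2, 6 and 1 weeks. The CDAHFD arrays of 6 weeks overlapped those of 1 and of 2 weeks, and the control arrays of 2 and 6 weeks overlapped each other.

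Gdf15 encodes a circulating stress cytokine that signals to the hindbrain and reduces food intake. At 1 week it read 2716 and 2279 on CDAHFD arrays, against 770.7 and 682.5 on control arrays. At 2 weeks the readings were 2408 and 3746 on CDAHFD, against 987.7 and 1129 on control, and at 6 weeks 4309 and 2499 on CDAHFD, against 1307 and 876.5 on control. Every CDAHFD array was above every control array. Gdf15 rose by 1.65 ± 0.30, 1.46 ± 0.30 and 1.58 ± 0.30 at 1, 2 and 6 weeks (adjusted p = 0.00144, 0.00338 and 0.00208 by limma), close to 3-fold at each week, and its difference did not change between weeks beyond the error (-0.13 ± 0.42 from 1 to 6 weeks, adjusted p = 0.848). It kept its call under every alternative, with adjusted p of 0.0317 or less.

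Atf3, a transcription factor of the activating transcription factor family that is induced early in many kinds of stress, had 677.3 and 344.2 on CDAHFD arrays at 1 week, against 23.6 and 23.9 on control arrays. The 2-week arrays had 514.9 and 759.9 on CDAHFD, against 12.4 and 15.7 on control, neither of these being well above background. At 6 weeks it had 970.8 and 695.8 on CDAHFD, against 31.3 and 35.4 on control. Every CDAHFD array lay far above every control array, in all weeks. Atf3 rose by 4.22 ± 0.31 at 1 week (adjusted p = 1.06e-05) and 4.59 ± 0.31 at 6 weeks (adjusted p = 2.91e-06). At 2 weeks the fitted difference was 5.43 ± 0.31 (adjusted p = 2.14e-06 by limma), from control readings that were not well above background. With the dimmest signal called well above background on each control array in their place, the CDAHFD mean was 37.1-fold higher. That fold leaves out the error of the fit and is not a lower limit of the difference. With normexp the differences were 2.37, 3.06 and 3.17, still called at each week. Among the 10 genes Atf3 and Fgf21 were each other's nearest in profile.

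Ddit3, which encodes the pro-apoptotic transcription factor CHOP, read 352.2 and 242.7 on CDAHFD arrays at 1 week, against 130.6 and 81.5 on control arrays. Its 2-week readings were 170.7 and 243.0 on CDAHFD, against 97.3 and 119.7 on control, and at 6 weeks 260.2 and 261.4 on CDAHFD, against 166.2 and 128.2 on control. The arrays of the diets did not overlap within a week. Ddit3 rose by 1.37 ± 0.27 at 1 week (adjusted p = 0.00175), 0.87 ± 0.27 at 2 weeks (adjusted p = 0.0229) and 0.80 ± 0.27 at 6 weeks (adjusted p = 0.0318), all by limma. The later calls were weak ones. At 2 weeks the call ended without control replicate 1 (adjusted p = 0.131) or CDAHFD replicate 2 (adjusted p = 0.169), at 6 weeks without control replicate 2 (adjusted p = 0.181) or either CDAHFD array (adjusted p = 0.0846 and 0.0939), and at both with normexp, quantile normalization or the percentile over all probes. The average over weeks, 1.01 ± 0.16, was called in all 26 alternatives run for it.

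Atf4 encodes the central transcription factor of the response, which is controlled mainly at the level of translation, so its mRNA does not measure its activity. Its brighter probe read 19730 and 16010 on CDAHFD arrays at 1 week, against 14780 and 14320 on control arrays. Its 2-week readings were 13940 and 13990 on CDAHFD, against 19420 and 18360 on control, and at 6 weeks 15770 and 17090 on CDAHFD, against 17120 and 17660 on control. CDAHFD arrays were thus above the controls at 1 week and below them at 2 and 6 weeks. The differences were 0.16 ± 0.12 at 1 week (adjusted p = 0.0677), -0.49 ± 0.12 at 2 weeks (adjusted p = 0.013) and -0.12 ± 0.12 at 6 weeks (adjusted p = 0.604). The fall at 2 weeks was not called without control replicate 1 (adjusted p = 0.0735), without CDAHFD replicate 1 or 2 (adjusted p = 0.0661 and 0.0667) or with quantile normalization (-0.10, adjusted p = 0.623). At 1 week the gene was called higher with quantile normalization (0.67, adjusted p = 0.00262), with normexp (0.57, adjusted p = 0.0497) and without CDAHFD replicate 2 (0.27, adjusted p = 0.0216). The average over weeks was -0.15 ± 0.07 (adjusted p = 0.34), and quantile normalization turned it to 0.23 (adjusted p = 0.0184).

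A second, dimmer probe of Atf4 read 349.3 and 283.7 on CDAHFD at 1 week, against 343.6 and 319.1 on control. Readings at 2 weeks were 226.8 and 274.3 on CDAHFD, against 286.4 and 377.4 on control, and at 6 weeks 254.3 and 226.5 on CDAHFD, against 387.0 and 410.8 on control. It differed by -0.20 ± 0.17, -0.45 ± 0.17 and -0.77 ± 0.17 (adjusted p = 0.754, 0.0888 and 0.00588). Averaged over weeks, this dimmer probe was called lower, at -0.48 ± 0.10 (adjusted p = 0.0046 by limma), whereas the brighter was not called. The probes thus passed the test at different weeks, the brighter at 2 and the dimmer at 6, and with the scaling used here neither was called higher in CDAHFD livers at any week.

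Atf5, a relative of ATF4 that is also translated under eIF2 phosphorylation and is abundant in liver, did not pass at any week. On CDAHFD arrays it read 45360 and 47820 at 1 week, 36630 and 37250 at 2 weeks and 26560 and 44470 at 6 weeks. On control arrays it read 46680 and 42780 at 1 week, 39950 and 25230 at 2 weeks and 29210 and 28740 at 6 weeks. The diets overlapped at every week, and the differences were -0.07 ± 0.24, 0.17 ± 0.24 and 0.21 ± 0.24 (adjusted p = 0.861, 0.514 and 0.452). With a 95% confidence interval of -0.21 to 0.41 for the average over weeks, a change of 2-fold lies outside the interval. Against the controls of 2 and 6 weeks the 1-week difference was 0.56 (adjusted p = 0.0427), and the 6-week difference was 0.55 without CDAHFD replicate 1 (adjusted p = 0.0455).

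Trib3 encodes a pseudokinase that is induced by ATF4 and CHOP and restrains them, and that binds Akt. At 1 week it read 8042 and 6629 on CDAHFD, against 2766 and 3778 on control, with no overlap. Readings at 2 weeks were 2025 and 4250 on CDAHFD, against 1463 and 3156 on control, and at 6 weeks 1402 and 4870 on CDAHFD, against 3426 and 3339 on control, so that the later weeks overlapped. The 6-week CDAHFD arrays were 3.47-fold apart. The differences were 1.04 ± 0.66, 0.40 ± 0.66 and -0.41 ± 0.66 (adjusted p = 0.199, 0.637 and 0.697), with standard errors more than 2 times those of Ddit3. When only the 4 arrays of the week entered the fit, the 1-week difference had an adjusted p of 0.00337 by limma. On control replicate 1 at 1 week, 4 of the 42 bright spots around the Trib3 spot were dimmer by 8-fold or more than on the other 11 arrays, and the part of this in the value of that array was not tested. The spots of the other 9 genes had 0 such neighbours.

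Asns encodes asparagine synthetase, a textbook target of ATF4 under amino acid shortage. It read 1357 and 909.1 on CDAHFD at 1 week, against 1006 and 380.3 on control. At 2 weeks it read 987.2 and 1080 on CDAHFD, against 848.5 and 413.1 on control, and at 6 weeks 1099 and 3050 on CDAHFD, against 466.0 and 813.8 on control. The diets overlapped at 1 week and did not overlap at 2 and 6 weeks. The differences were 0.71 ± 0.68, 0.75 ± 0.68 and 1.54 ± 0.68 (adjusted p = 0.354, 0.395 and 0.108), and the average over weeks was 1.0 ± 0.39 (adjusted p = 0.048). That call was lost in 17 of the 26 alternatives run for it, 9 of them leaving out 1 array.

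Chac1 encodes an enzyme that breaks down glutathione and is a sensitive ATF4 target in cultured cells. On CDAHFD it read 843.4 and 1289 at 1 week, 176.4 and 1027 at 2 weeks and 267.4 and 254.9 at 6 weeks. On control it read 963.2 and 347.3 at 1 week, 915.1 and 403.9 at 2 weeks and 275.0 and 241.9 at 6 weeks. The diets overlapped at every week, and the CDAHFD arrays of 2 weeks were 5.82-fold apart. The differences were 0.72 ± 0.89, -0.57 ± 0.89 and -0.02 ± 0.89 (adjusted p = 0.482, 0.693 and 0.992), and the 95% interval of the average over weeks, -1.20 to 1.28, does not exclude a 2-fold change in either direction.

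Sesn2, a stress protein that senses leucine and restrains the growth kinase mTORC1, differed by a small amount in the same direction at every week. At 1 week it read 345.4 and 431.6 on CDAHFD, against 295.2 and 268.8 on control. At 2 weeks it read 379.5 and 401.6 on CDAHFD, against 232.5 and 262.6 on control, and at 6 weeks 371.2 and 404.3 on CDAHFD, against 243.9 and 213.8 on control. The diets did not overlap at any week. Sesn2 rose by 0.32 ± 0.14, 0.61 ± 0.14 and 0.73 ± 0.14 at 1, 2 and 6 weeks (adjusted p = 0.0285, 0.0048 and 0.00188 by limma), at most 1.66-fold. The 1-week call depended on the scaling, with adjusted p = 0.391 with the percentile over all probes, 0.159 with median centring and 0.241 with quantile normalization. It also ended with normexp (adjusted p = 0.16), without control replicate 1 or 2 at 1 week (adjusted p = 0.0583 and 0.13) and without CDAHFD replicate 2 at 1 week (adjusted p = 0.192).

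**Figure D2:**
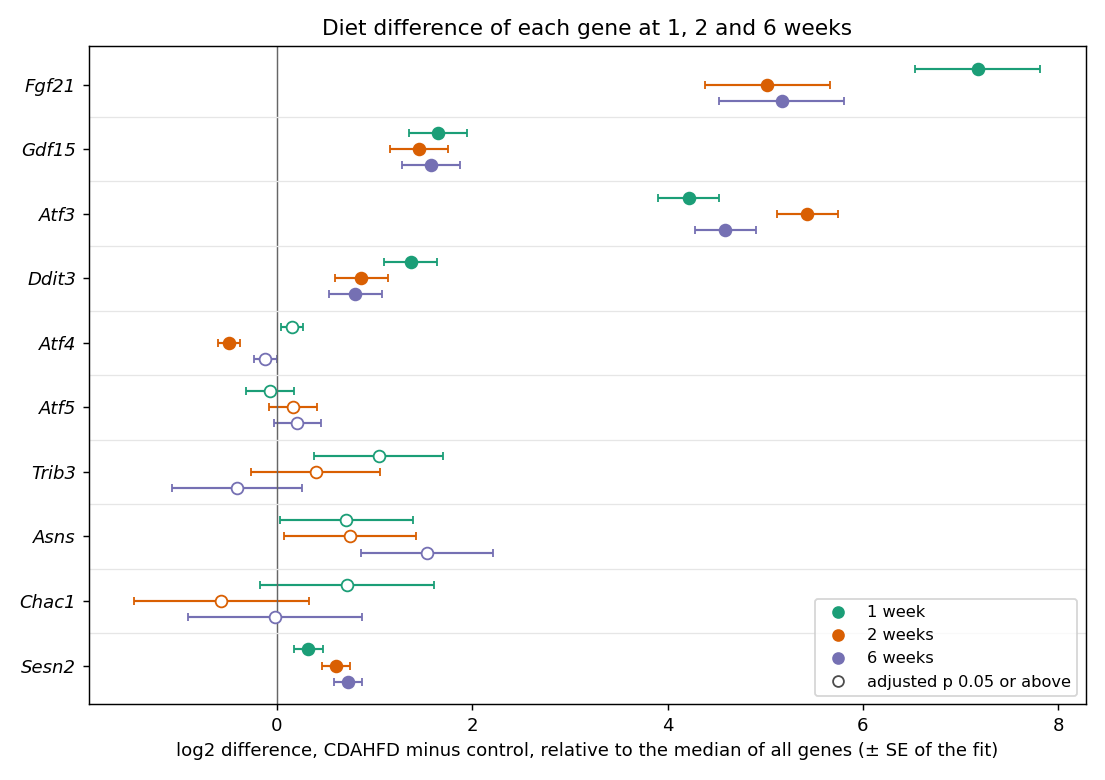
Log2 difference (CDAHFD minus control, less the median over all genes) of the 10 genes at 1, 2 and 6 weeks, with bars for the standard error of the limma fit and open symbols where the adjusted p was 0.05 or above. Fgf21, Gdf15, Atf3, Ddit3 and Sesn2 are called to the right of 0 at each week, and Chac1, Asns, Trib3 and Fgf21 have the widest bars, in that order.

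Of the whole group, 5 of the 10 genes were higher and 0 lower at 1 week, where 25.9% of all genes tested were called higher and 15.0% lower. At 2 weeks 5 were higher and 1 lower, against 22.9% and 14.9% of all genes, and at 6 weeks 5 were higher and 0 lower, against 24.5% and 16.2%. The 5 higher genes were Fgf21, Gdf15, Atf3, Ddit3 and Sesn2 at each week. In the average over weeks Asns joined them, giving 6 higher and 0 lower where 35.6% and 25.7% of all genes were called. At an unadjusted p under 0.05 the counts of lower genes were 0, 1, 0 and 0. The median of the 10 differences was 0.88, 0.68 and 0.76 at 1, 2 and 6 weeks, while that of all genes is 0 by construction. Of the 5 higher genes, Ddit3 was 1.74- to 2.59-fold and Sesn2 1.25- to 1.66-fold higher over the 3 weeks.

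CDAHFD arrays lay above control arrays without overlap in 7 of the 10 genes at 1 week, 6 at 2 weeks and 6 at 6 weeks, and below them in 0, 1 and 1. Over all genes with values on these arrays, 45.6%, 39.6% and 38.4% lay above without overlap and 30.5%, 32.4% and 32.7% below, so separation of 2 arrays from 2 was common. Trib3 was among the first at 1 week and Asns at 2 and 6 weeks, though none of these differences was called. Of the 5 genes with the letters TGATGNAA or their complement, Fgf21 and Atf3 were called at every week and Chac1, Asns and Trib3 at no week. Of the 5 without them, Ddit3, Gdf15 and Sesn2 were called higher at every week.

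In 0 of the 10 genes did the diet difference change between weeks by the limma F test, where 2.39% of all genes were called, and 1 of the 10, Atf4, had an unadjusted p under 0.05 (adjusted p = 0.0766). Its difference was lower at 2 weeks than at 1 week by -0.70 ± 0.16 (adjusted p = 0.058). Levels changed over the weeks within CDAHFD in 0 of the 10 genes, where 3.09% of all genes were called, and within control in 0, where 11.5% were called. Unadjusted, 1 gene passed within CDAHFD and 2 within control. The 6-week arrays were on a slide of their own, so 6 weeks and slide cannot be told apart within a diet, whereas each diet difference was taken within 1 slide.

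**Figure D3:**
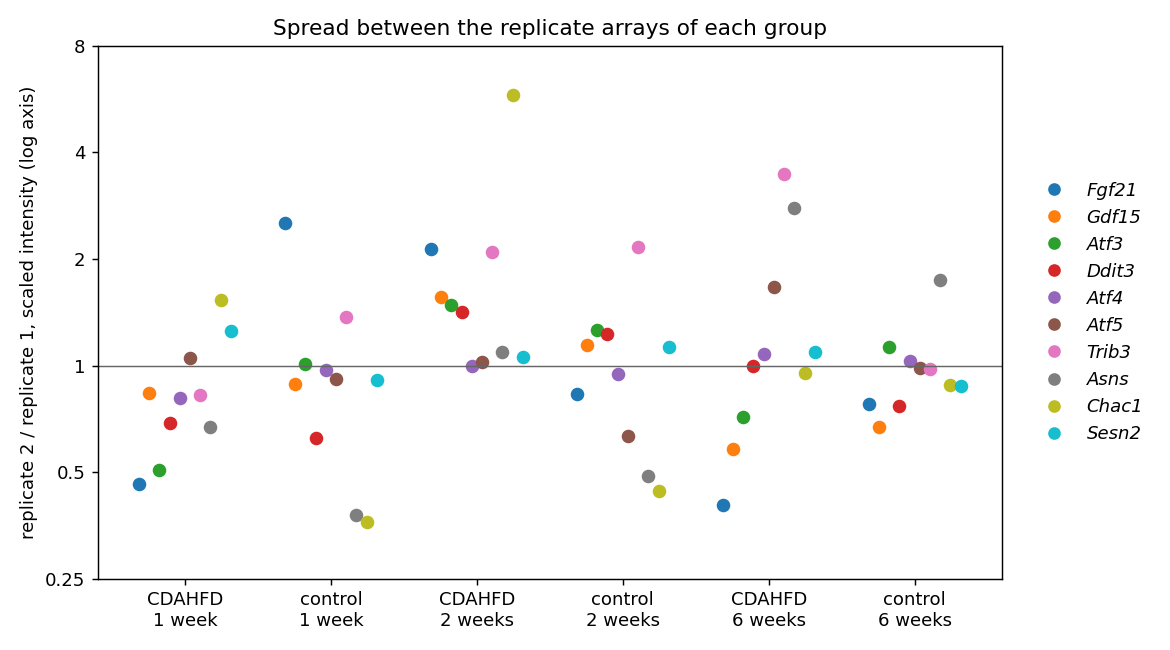
Ratio of replicate 2 to replicate 1 in scaled intensity (log axis, base 2) for the 10 genes in each of the 6 groups, CDAHFD left of control at each week. All 10 genes are above 1 in CDAHFD at 2 weeks, and Chac1 there has the widest spread, at 5.82.

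The spread between the arrays of a group was uneven over these genes. Atf4 and Sesn2 differed little between replicates, while Fgf21 differed by more than 2-fold in 4 of the 6 groups, and Trib3, Asns and Chac1 in 3 each. In CDAHFD at 2 weeks all 10 genes read higher on replicate 2, with ratios from 1.0 for Atf4 to 5.82 for Chac1, though the median of all genes differed by 0.01 log2 between these arrays. In CDAHFD at 1 week 3 of 10, and at 6 weeks 6 of 10, read higher on replicate 2. Fgf21, Gdf15 and Atf3 moved together here: all of them were higher on replicate 1 in CDAHFD at 1 and 6 weeks and higher on replicate 2 at 2 weeks.

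Likeness in profile was measured as the root mean square log2 difference over the 12 arrays after each gene was centred on its own mean, as a description, since the arrays share the diet. Nearest to Fgf21 were Clec4e (0.736), a lectin of myeloid cells, Egr2 (0.839), a transcription factor, Elovl7 (0.851), a fatty acid elongase, Itgax (0.906), the CD11c integrin, and Cxcl5 (0.925), a chemokine that attracts neutrophils. Their differences averaged over weeks were 5.14, 5.10, 5.25, 5.73 and 5.04, near the 5.78 of Fgf21, since the measure takes in the size of the change. Of the other 9 genes Atf3 was nearest, at 1.03. Gdf15 was nearest to Ddit3 at 0.443, Ddit3 to Sesn2 at 0.433 and Asns to Ddit3 at 0.582. Atf4, Trib3, Chac1 and Sesn2 all had Atf5 as their nearest, at 0.387, 0.657, 0.837 and 0.359.

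**Figure D4:**
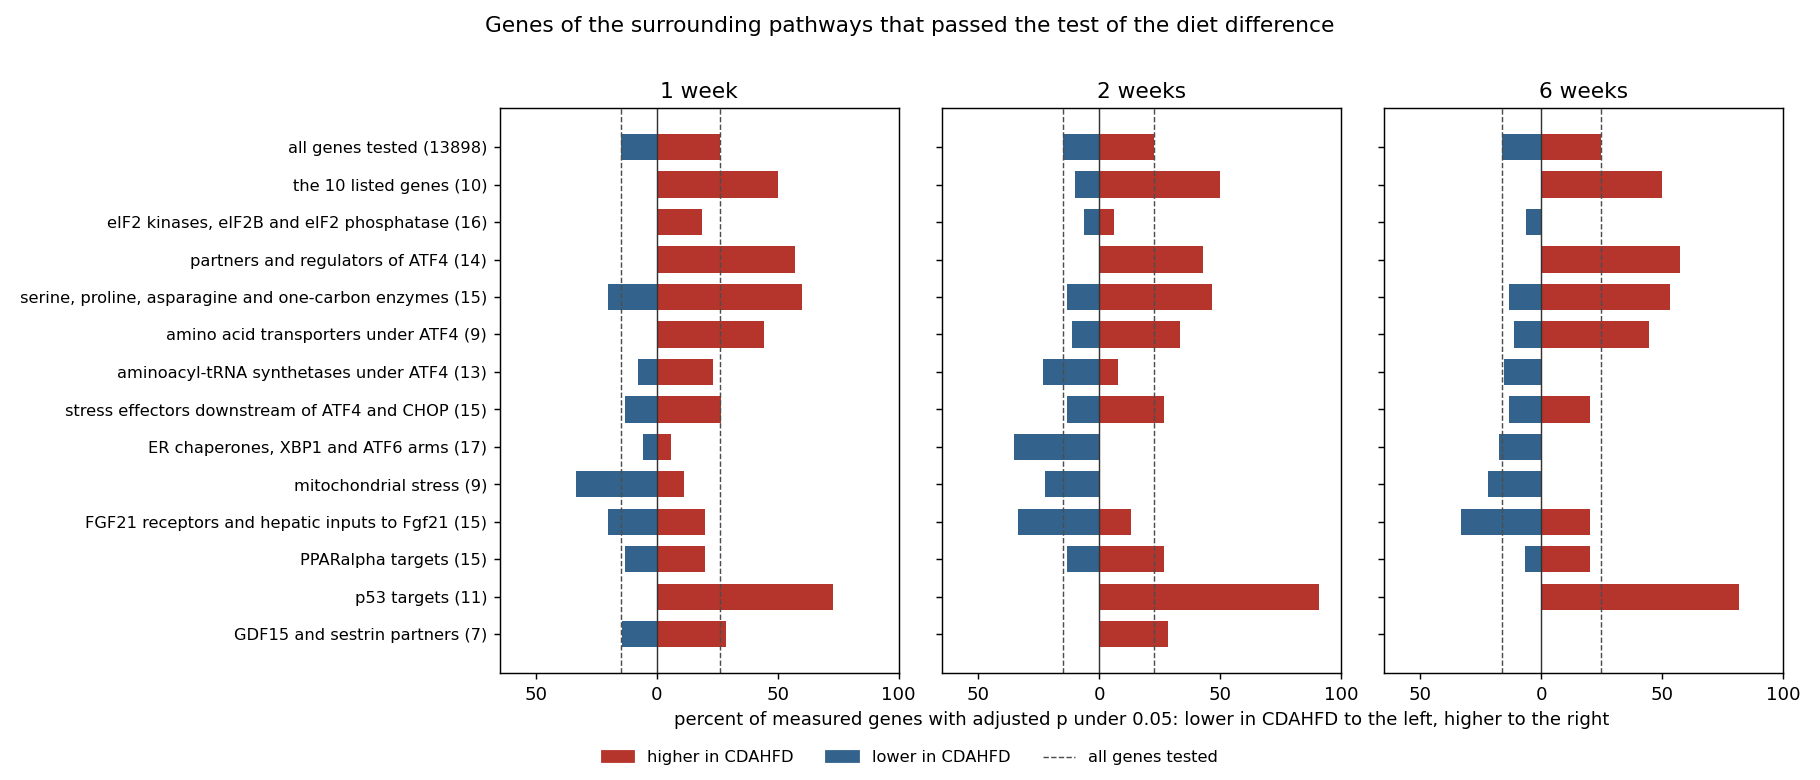
Percent of the measured genes of each list (number in brackets) with adjusted p under 0.05 at 1, 2 and 6 weeks, bars to the right for higher and to the left for lower in CDAHFD, with dashed lines at the shares over all genes tested. Of p53 targets, 8, 10 and 9 of 11 are called higher, and of endoplasmic reticulum chaperones 1, 0 and 0 of 17.

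Genes around these 10 were described by lists, with no test of a list, and single values are averages over weeks. Over all genes tested, 25.9%, 22.9% and 24.5% were called higher at 1, 2 and 6 weeks and 15.0%, 14.9% and 16.2% lower. Each count of a list is to be read beside these shares. Upstream, 16 of 16 genes of the eIF2 kinases, eIF2B and the eIF2 phosphatase were measured, of which 3, 1 and 0 were higher and 0, 1 and 1 lower at 1, 2 and 6 weeks, below the shares over all genes. The kinase PERK of the endoplasmic reticulum, Eif2ak3, was at 0.22 ± 0.13 (adjusted p = 0.0698, but 0.00628 without control replicate 2 at 2 weeks, 0.0427 without CDAHFD replicate 1 at 2 weeks and 0.0483 without CDAHFD replicate 2 at 6 weeks) and the phosphatase subunit Ppp1r15a, a feedback target of ATF4, at -0.01 ± 0.12 (adjusted p = 0.628). The amino acid sensor GCN2, Eif2ak4, rose by 0.39 ± 0.07 (adjusted p = 0.00022). It was at 0.78 ± 0.12 at 1 week and at 0.15 at 6 weeks (adjusted p = 0.27). The limma F test over the 3 weeks did not call its change (adjusted p = 0.0788). By the single contrast from 1 to 6 weeks, 1 of the 16 genes of this list had a difference called as falling, against 399 of all 13898. PKR, Eif2ak2, the interferon-induced kinase for double-stranded RNA, rose by 0.72 ± 0.10 (adjusted p = 5.65e-05). With the percentile taken over all probes, the list had 5, 5 and 6 genes lower.

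Partners and regulators of ATF4 were higher in 8, 6 and 8 of 14 genes and lower in 0, 0 and 0, with unadjusted counts of 0 lower as well. Nupr1, a stress-induced cofactor, rose by 4.62 ± 0.36 (adjusted p = 2.12e-05), and the AP-1 factors Batf3 by 2.07 ± 0.13 (adjusted p = 2.43e-07) and Jdp2 by 1.62 ± 0.16 (adjusted p = 7.16e-06). The C/EBP partners of ATF4 moved little, Cebpb by 0.22 ± 0.08 (adjusted p = 0.0115, but 0.665 with the percentile over all probes and 0.15 with median centring) and Cebpg at -0.02 ± 0.12 (adjusted p = 0.68). With normexp Jdp2 was at 0.94. Batf3 is also expressed in leukocytes.

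Enzymes of serine, proline and one-carbon metabolism under ATF4 were higher in 9, 7 and 8 and lower in 3, 2 and 2 of 15 measured genes, with list medians of 1.95, 0.80 and 1.49. Psat1, of serine synthesis, rose by 4.05 ± 0.34 (adjusted p = 1.19e-05), Mthfd1l, of mitochondrial folate metabolism, by 3.65 ± 0.18 (adjusted p = 7.05e-08) and Phgdh, the first enzyme of serine synthesis, by 1.44 ± 0.20 (adjusted p = 9.63e-05). Mthfd2, of the same folate pathway, was below background on every control array at 1 and 6 weeks. Set against the dimmest signal called well above background, it was 3.85- and 4.61-fold higher there. It is 1 of 5 genes of the list that passed the filter on dim probes through CDAHFD arrays alone, and of the higher calls these 5 made 5, 4 and 4. The filter favours a higher value on CDAHFD in such genes, so their calls are no support. The list medians take in these 5 genes and are raised by the filter in the same way. Cbs, which consumes homocysteine and serine, fell by 1.49 ± 0.16 (adjusted p = 3.26e-05). With normexp only 3, 3 and 3 of the 15 were higher, with medians of 0.23, 0.14 and 0.22, Psat1 at 2.32, Mthfd1l at 2.05, Phgdh at 0.56 and Mthfd2 at 0.37 (adjusted p = 0.268).

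Of 9 measured amino acid transporters under ATF4, 4, 3 and 4 were higher and 0, 1 and 1 lower. The cationic transporter Slc7a1 rose by 2.21 ± 0.14 (adjusted p = 2.73e-07) and the glutamine transporter Slc1a5 by 2.72 ± 0.18 (adjusted p = 4.92e-07), with 1.34 and 1.66 under normexp. Of aminoacyl-tRNA synthetases, a further class of ATF4 targets, 3, 1 and 0 of 13 were higher and 1, 3 and 2 lower. The threonine enzyme Tars fell by 0.83 ± 0.09 (adjusted p = 2.71e-05) and the methionine enzyme Mars1 by 0.89 ± 0.12 (adjusted p = 0.000138), while the tryptophan enzyme Wars was at 0.04 ± 0.07 (adjusted p = 0.185). With the percentile over all probes 0, 0 and 0 of the synthetases were higher and 5, 4 and 6 lower.

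Effectors downstream of ATF4 and CHOP were higher in 4, 4 and 3 and lower in 2, 2 and 2 of 15 genes, near the shares over all genes. The death receptor Tnfrsf10b was below background on every control array. Set against the dimmest signal called well above background, it was 3.65-, 5.35- and 7.49-fold higher. It passed the filter through CDAHFD arrays alone, as 2 of the 15 genes did, so its calls are no support, and with normexp it was not called at 1 and 2 weeks (adjusted p = 0.941 and 0.154). Hmox1, haem oxygenase, which also marks macrophages, rose by 1.94 ± 0.15 (adjusted p = 2.76e-06) and Ddit4, an inhibitor of mTORC1, by 1.76 ± 0.38 (adjusted p = 0.00503), whereas Herpud1, a factor of endoplasmic reticulum degradation, fell by 0.86 ± 0.11 (adjusted p = 0.000146).

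Chaperones of the endoplasmic reticulum and the XBP1 and ATF6 arms, which rise in the unfolded protein response, were higher in 1, 0 and 0 and lower in 1, 6 and 3 of 17 genes, with medians of -0.33, -0.66 and -0.26. At 2 weeks the chaperone BiP, Hspa5, fell by 0.55 ± 0.15 (adjusted p = 0.0259) and the transcription factor Xbp1 by 0.76 ± 0.15 (adjusted p = 0.00428), though neither was called with quantile normalization (adjusted p = 0.664 and 0.156). The count of lower genes at 2 weeks was 3 with quantile normalization and 10 with the percentile over all probes. Mitochondrial stress genes were higher in 1, 0 and 0 and lower in 3, 2 and 2 of 9, against 3, 1 and 0 higher and 1, 1 and 1 lower with quantile normalization. The protease OMA1 and its substrate DELE1, which relay mitochondrial stress to eIF2, did not pass, with Oma1 at -0.32 ± 0.16 (adjusted p = 0.202) and Dele1 at -0.03 ± 0.07 (adjusted p = 0.562). Oma1 was called lower with normexp, quantile normalization, median centring and the percentile over all probes (adjusted p = 0.00584, 0.0191, 0.0452 and 0.0148), and Dele1 with the last of these (adjusted p = 0.0314), while the protease Clpp fell by 0.81 ± 0.07 (adjusted p = 9.3e-06).

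Of 15 receptors of FGF21 and hepatic inputs to its gene, 3, 2 and 3 were higher and 3, 5 and 5 lower. Klb, the beta-klotho co-receptor that FGF21 needs, fell by 0.70 ± 0.14, 1.30 ± 0.14 and 1.46 ± 0.14 at 1, 2 and 6 weeks (adjusted p = 0.00941, 8.58e-05 and 2.91e-05), and Fgfr4, the main FGF receptor of hepatocytes, by 0.57 ± 0.13, 1.09 ± 0.13 and 0.85 ± 0.13 (adjusted p = 0.0213, 0.000149 and 0.000635). The 1-week calls were lost for Klb without control replicate 2 (adjusted p = 0.0648) or CDAHFD replicate 2 (adjusted p = 0.0544), and for Fgfr4 without control replicate 1 or 2 (adjusted p = 0.0553 and 0.0934) or CDAHFD replicate 1 (adjusted p = 0.149). Fgfr1, the receptor through which FGF21 acts in fat, was at -0.12 ± 0.27 at 1 week (adjusted p = 0.981) and rose by 0.95 ± 0.27 and 1.10 ± 0.27 at 2 and 6 weeks (adjusted p = 0.0154 and 0.00778), but with the mean of its probes it was not called (adjusted p = 0.423 and 0.571). Fap, a protease that cleaves FGF21, was below background in controls. Set against the dimmest signal called well above background, it was 2.2-, 2.72- and 2.53-fold higher. It too passed the filter through CDAHFD arrays alone, and it was not called with normexp (adjusted p = 0.651, 0.728 and 0.631). Of PPARalpha targets, 3, 4 and 3 of 15 were higher and 2, 2 and 1 lower, near the shares over all genes or below them. With quantile normalization 6, 5 and 5 of the PPARalpha targets were higher and 2, 0 and 0 lower. Cpt1a, of fatty acid import into mitochondria, rose by 0.74 ± 0.12 (adjusted p = 0.000179) and the lipid droplet gene Cidec by 5.08 ± 0.18 (adjusted p = 3.06e-08).

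Gdf15 and Sesn2 are p53 targets as well as ATF4 targets. The list of other p53 targets was higher in 8, 10 and 9 of 11 measured genes and lower in 0, 0 and 0, also unadjusted, against 25.9%, 22.9% and 24.5% of all genes called higher. Phlda3, which restrains Akt, rose by 2.94 ± 0.13 (adjusted p = 2.83e-08), the cell cycle inhibitor Cdkn1a by 3.06 ± 0.25 (adjusted p = 5.38e-06) and Mdm2, the ligase of p53, by 0.75 ± 0.07 (adjusted p = 4.18e-06). Sesn1, the p53-induced sestrin, rose by 0.42 ± 0.10 (adjusted p = 0.00174). Of the 11, 2 passed the filter through CDAHFD arrays alone, Tnfrsf10b among them, and these made 1, 2 and 2 of the higher calls. With normexp 4, 6 and 7 of the 11 were higher. Of 7 measured genes of GDF15 and sestrin signalling, 2, 2 and 0 were higher and 1, 0 and 0 lower.

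Markers of several cell types differed between the diets in the same comparisons. Over all genes tested, 25.9%, 22.9% and 24.5% were called higher at 1, 2 and 6 weeks and 15.0%, 14.9% and 16.2% lower. Sums of scaled intensity over a list add different probes, so they are weighted towards the brightest probes of the list. Macrophage and monocyte markers were higher in 6, 7 and 7 of 10 genes and lower in 1, 0 and 0, and their summed intensity was 20560 to 20900, 25710 to 28210 and 33960 to 39770 on CDAHFD arrays at 1, 2 and 6 weeks, against 9071 to 13430, 7000 to 10370 and 9869 to 10660 on control arrays. Of this list Ccr2 and Gpnmb were not well above background on any control array, and they made 2 of the higher calls at each week. Hepatocyte markers were higher in 0 and lower in 5, 4 and 2 of 6, with sums of 227500 to 291300 on CDAHFD and 298000 to 565100 on control. With quantile normalization the hepatocyte counts were 0, 1 and 1 higher and 3, 0 and 0 lower. Markers of stellate cells and fibroblasts were higher in 5, 5 and 5 of 6, with sums of 7970 to 12530 on CDAHFD and 1226 to 2525 on control. Neutrophil markers were higher in 2, 2 and 3 and lower in 1, 0 and 0 of 5, with sums of 1736 to 3167 on CDAHFD and 459.0 to 758.2 on control, and Mpo was not well above background on any control array. T and NK cell markers were higher in 2, 2 and 2 and lower in 1, 0 and 0 of 4, B and plasma cell markers higher in 2, 0 and 0 of 3, cholangiocyte markers higher in 0, 0 and 1 of 4, endothelial markers higher in 1, 1 and 1 and lower in 0, 0 and 2 of 4, and erythroid markers lower in 3, 3 and 3 of 3. Every marker list but those of B and plasma cells and of cholangiocytes thus had called genes at every week. Fgf21, Atf3, Gdf15, Ddit3 and Sesn2 were also called at every week, and the part of any cell type in their differences was not tested. The hepatocyte markers were well above background on all 12 arrays, as the label liver implies.

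Of the arrays themselves, 45.4 to 49.6% of probes were well above background on CDAHFD and 40.4 to 44.4% on control. The log2 difference between replicates had an SD over genes of 0.85 in the 1-week controls and of 0.29 to 0.49 elsewhere. Control replicate 1 at 1 week held 319 spots that were 8-fold or more dimmer than on the other 11 arrays, while those arrays held 0 to 2 such spots. None of the 11 probes lay in the blocks of these spots. With the blocks masked the 1-week differences were 7.19 for Fgf21, 4.23 for Atf3 and 1.66 for Gdf15, and against the controls of 2 and 6 weeks they were 6.29, 4.42 and 1.16.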

How the data were processed

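Liver RNA was measured on 12 one-colour Agilent mouse arrays in 6 groups of 2, assigned from the sample titles. Per the file headers, the deposited values are Feature Extraction processed signal intensity, background-subtracted and not normalized between arrays. The headers give Feature Extraction 11.5.1.1 and the submitters' processing notes 10.7. Each array held 62976 spots, and 150 ng of RNA was used per the labels' protocols. Control spots and outlier-flagged spots were left out, and spots of a probe were averaged. Of 55681 probes, 28664 were named through RefSeq by accession and 27017 were not. No spot was saturated on any array.

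From the intensities, log2 values were computed and scaled by each array's 75th percentile, taken over the 20135 probes that passed the background test everywhere. Genes with a probe well above background on both arrays of any group were kept, which left 13898, each represented by its brightest probe. Group means were fitted with limma 3.58.1 in R 4.3.3 (lmFit, eBayes with trend and robust, 6 residual degrees of freedom), with 2-sided moderated tests, Benjamini-Hochberg adjustment over all genes and a threshold of 0.05. The median difference over all genes (0.13 at 1 week, 0.05 at 2, 0.03 at 6 and 0.08 averaged) is subtracted from printed differences, while p tests the difference before that subtraction. The number of arrays limits the precision.

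The 10 genes and the 21 lists of related genes (201 of 211 symbols measured) were chosen with earlier results of these data known. Text names all 10 genes. Of each list it could name the first 3 measured symbols and up to 4 with the smallest adjusted p averaged over weeks, and it shows a selection of these. Genes named for their likeness to Fgf21 are the nearest 5. Other markers were named for lying below background in controls, which was seen in the data. A gene below background on both arrays of a group has a fold against the dimmest signal called well above background, also less the median over all genes. That fold leaves out the error of the fit and is not a lower limit of the difference.

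Alternatives were normexp background correction (on the median signals of spot and background, offset 50, in place of the mean signal), the 75th percentile over all probes, median centring, quantile normalization, no filter, a stricter filter, the mean of a gene's probes, array weights, eBayes without trend, masked dim blocks, other controls, single weeks, and each array left out. Weeks 1 and 2 were on slide 1 and week 6 on slide 2, each with both diets. Every replicate 1 was in column 1 of its slide and every replicate 2 in column 2, so number and column cannot be told apart. The replicate numbers gave no clear sign of pairing: deviations of same-numbered arrays correlated at -0.05, 0.18 and 0.11 at 1, 2 and 6 weeks. The range over all pairs compared was -0.14 to 0.22, and so few arrays cannot exclude a weak pairing.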

Additional observations from a re-analysis of the deposited data

How the results depend on the processing

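Fgf21, Atf3 and Gdf15 kept their diet calls at every week in every alternative that could be computed for them. Over the 10 genes, 1607 of 1666 recomputed values kept direction and side of the threshold, 40 lost the call, 17 gained one and 2 reversed; over the other named genes 5731 of 6086 did, 244 lost it, 107 gained it and 4 reversed. The reversed values were Atf4 averaged over weeks with quantile normalization (0.23), Atf5 of 1 week set against the later controls (0.56), Aldh18a1 at 1 week (-0.26) and Slc7a5 averaged (-0.16) with normexp, and Hspa5 (0.06) and Lonp1 (0.30) averaged with quantile normalization; the cause was not tested. Genes called numbered 5689, 5258 and 5657 at 1, 2 and 6 weeks and 8520 averaged, and 332, 430 and 1598 in the F tests of diet by week, weeks within CDAHFD and weeks within control. With normexp they were 3430 at 2 weeks, 3766 at 6 weeks and 740 for weeks within control. Taking the 6-week difference alone in place of the average, in the same fit of 12 arrays, gave 5657, and eBayes without trend gave 160 for diet by week and 282 within CDAHFD. With only genes well above background on all arrays, 8 of the 10 were tested and 3 were called at 1 week and 3 at 6 weeks. For weeks within control, the percentile over all probes called 1 of the 10, median centring 1 and quantile normalization 2. Without 1 array at a time, the genes called were 3073 to 6203, 3391 to 5809, 3972 to 5758 and 7643 to 8574, and 23 to 609, 21 to 832 and 391 to 2121 in the F tests; of the 10 genes 4 to 5, 4 to 6, 4 to 6 and 5 to 7 were called, and 0 to 1 for weeks within control. With the replicate number as a block, which is also the column on the slide, 5670, 5280, 5681 and 8527 genes were called, and 273, 390 and 1511 in the F tests; Fgf21 at 1 week was 7.17, and Asns averaged was not called (adjusted p = 0.0744). The scaling sets the split of calls: higher genes were 63.3, 60.5 and 60.2% of those called at 1, 2 and 6 weeks, 36.1, 39.3 and 38.1% with the percentile over all probes, 45.6, 48.9 and 48.3% with median centring, 59.3, 57.5 and 53.7% with quantile normalization and 33.3, 48.5 and 53.3% with normexp. The median of all genes moved with it, to -0.16, -0.16 and -0.20 with the percentile over all probes and -0.20, -0.15 and -0.08 with normexp. Signal near background limits the size of the Fgf21 and Atf3 differences, and 2 arrays a group limit all of them.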
